A study of Mus musculus with 2 samples.

Results

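DNA replication genes encode the proteins that load and fire origins, copy the strands, supply deoxynucleotides and rebuild chromatin behind the fork. The 43 genes described here are named S phase genes of these roles, and they were found by symbol among the 23284 genes of the table that the authors deposited. All 43 were present under their current symbols, and no filter on low values was applied, so every gene is accounted for below.

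Macrophages were collected from infarcted hearts of C57BL/6 mice 3 days after the left anterior descending artery had been ligated, and their RNA was sequenced. The groups were Ly6Chi and Ly6Clo macrophages, named for the amount of Ly6C on their surface, which is high on classical monocytes and on their recent progeny. Each group had 1 library, both from ligated hearts of the same strain and day, and no library of uninjured hearts was analysed here. The number of animals behind each library, their age and sex, and the sorting gates were not given in the labels.

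The value used for each gene is the authors' signed statistic, a score with no stated unit that compares the 2 libraries, with its rank by size (rank 1 is the largest). The codes of the columns of values per library match no sample label, so those columns were left out and no sign of the statistic could be tied to either population. Ly6c2, which encodes the Ly6C antigen, stood at -1.78 (rank 18) per the authors' deposited table, and it serves as a landmark for the negative side only. A single library on each side gives no replicate error and no p-value. The size of the score may depend on abundance as well as on the ratio. Differences in size between genes or groups of genes below are therefore not read as differences in fold change. Read depth per gene was not analysed here. In bulk RNA, fewer dividing cells and less of these transcripts per cell cannot be told apart.

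In a dividing cell, origins are licensed in G1 when ORC, CDC6 and CDT1 load the ring-shaped MCM2-7 helicase onto DNA. In S phase CDC45 and GINS turn the ring into a working helicase, polymerases epsilon and delta copy the leading and lagging strands, and PCNA clamps hold them in place. Many of these genes are switched on together by E2F transcription factors once the retinoblastoma protein releases them. Macrophages of the heart can arise from recruited monocytes and can also divide in place, so such transcripts are commonly used as a mark of cycling cells in this tissue.

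The shared E2F input can be looked for in the promoters, which are shown first because they place most of the licensing genes side by side. RefSeq promoters on GRCm38.p6, covering 250 bases before to 50 after a listed start, were available for 36 of the 43 genes. The E2F motif was searched as TTTGGCGC, TTTCCCGC, TTTCGCGC or TTTGCCGC on both strands, and forms may overlap. A match lay in at least 1 listed promoter of 14 of the 36 genes (38.9%), against 704 of 27025 genes in the promoter table (2.61%). The E2F letters contain CG, and 25 of the 36 genes had a CpG-rich promoter, against 32.7% of all genes. Among CpG-rich promoters alone the counts were 12 of 25 genes (48%) and 470 of 8840 (5.32%). The following stretches, written 5′ to 3′ on the gene's strand, carry matches in capitals for 10 of these genes.
Mcm6, chr1:128359725-128359835, minus strand: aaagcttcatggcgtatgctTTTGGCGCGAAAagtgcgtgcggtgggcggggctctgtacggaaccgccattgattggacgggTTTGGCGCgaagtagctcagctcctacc
Mcm5, chr8:75109336-75109387, plus strand: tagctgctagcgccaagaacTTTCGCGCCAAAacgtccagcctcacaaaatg
Mcm7, chr5:138172033-138172056, minus strand: ttcgaaccGCGGGAAAcagggtgt
Mcm3, chr1:20820278-20820301, minus strand: cttccgtgGCGGGAAAacttggga
Orc1, chr4:108579419-108579442, plus strand: ggttagtgGCGCGAAAagttttct
Cdc6, chr11:98908005-98908028, plus strand: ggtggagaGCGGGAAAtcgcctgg
Cdt1, chr8:122568039-122568062, plus strand: actaccttTTTGGCGCcatggcgc
Pola1, chrX:93632278-93632301, minus strand: atcacaggGCGCCAAAtgcactcc
Hells, chr19:38930920-38930943, plus strand: caccgggtTTTCCCGCgaaagaga
Uhrf1, chr17:56304120-56304143, plus strand: gagtcgggTTTCGCGCgcccaggc

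The stretches of Mcm5 and Mcm6 lie outside every annotated exon and gene span. The capitals of Mcm5 hold 2 overlapping matches, 153 and 149 bases before the start. Mcm6 holds 3 matches, an overlapping pair 110 and 106 bases before the start and another 47 bases before it. The stretches of Cdc6, Pola1 and Uhrf1 lie within the RefSeq span of their own gene and in no GENCODE exon. Those of Mcm3, Orc1, Cdt1 and Hells overlap an exon of their own gene, and that of Mcm7 overlaps exons of Mcm7 and of Ap4m1 on the opposite strand. Further matches outside the stretches shown begin at base 39 in Mcm3 and at base 17 in Mcm7, counted from the listed start as base 1 of the transcribed strand. In Cdt1 the match begins at base 33, counted in the same way. The Uhrf1 match belongs to a start other than the first listed for that gene. Lig1, Dnmt1, Pold1 and Rfc3 make up the rest of the 14.

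Taken as a group, the replication genes lay on the side opposite to Ly6c2. Of the 43 genes, 42 had a positive statistic, 1 was negative and none was 0, where 40.4% of all genes were positive and 29.6% negative. At a statistic of 0.5 or more stood 29 genes (67.4%), against 3.77% of all genes, and none stood at -0.5 or less, against 0.988%. Set against genes with a value other than 0 the background was 5.39%, and against genes with a size of 0.1 or more it was 10.2%. At 0.25 or more stood 37 members, against 9.9% of all genes. Their median statistic, computed from the authors' deposited table, was 0.64, and that of all genes was 0. The members ranged from -0.08 to 1.18 per the authors' deposited table, so they shared a side more than a size. At a statistic of 1 or more stood 3 members (6.98%), against 0.709% of all genes.

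**Figure D1:**
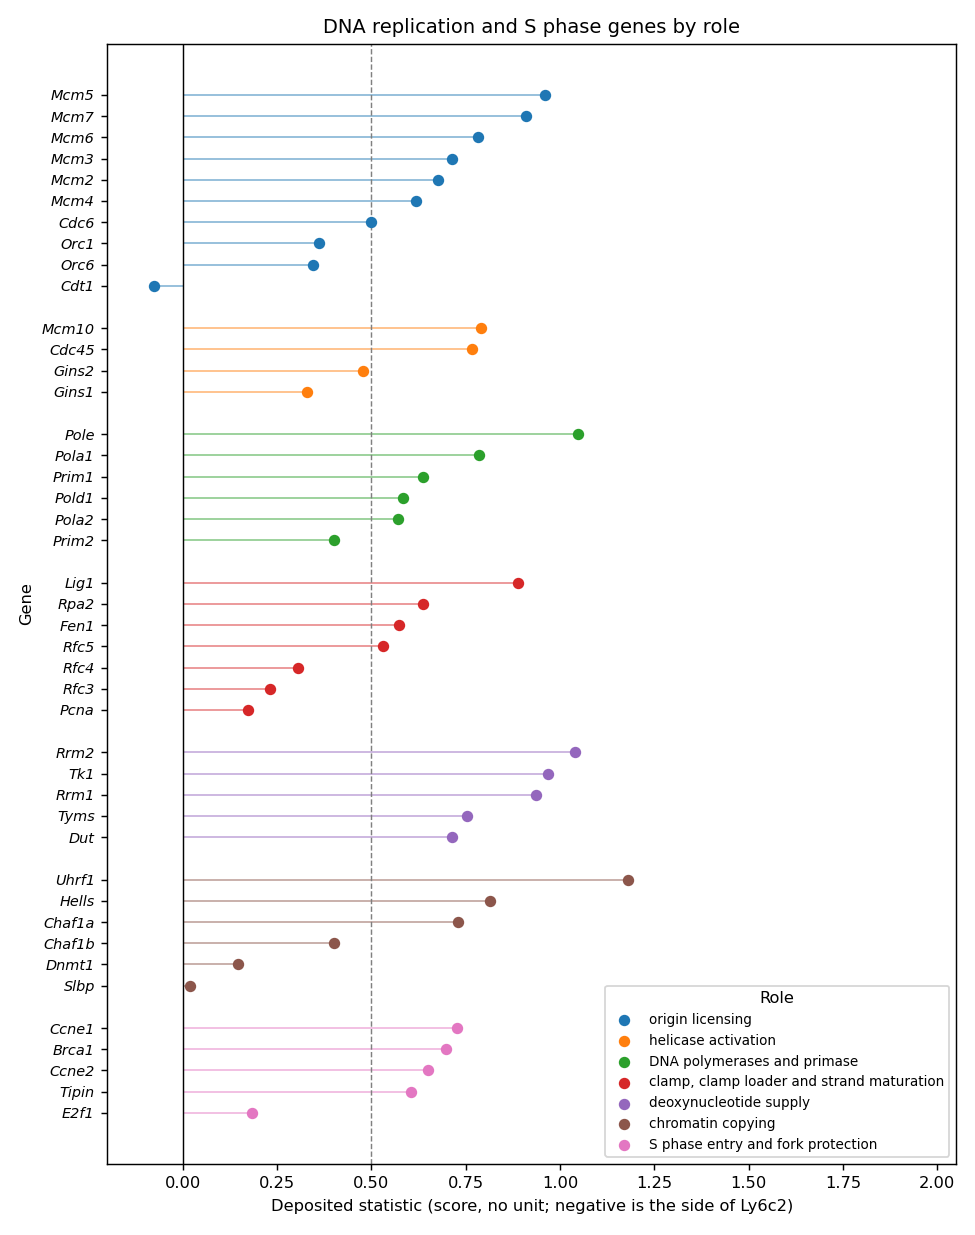
Each point is the deposited statistic (horizontal axis, a score with no unit) of 1 of the 43 genes, coloured by role, with a solid line at 0 and a dashed line at 0.5. Points lie right of 0 for all genes except Cdt1, and the deoxynucleotide genes all lie right of 0.5.

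Among the 10 origin licensing genes, the MCM2-7 ring stood apart from its loaders. All 6 ring subunits passed 0.5, from Mcm4 at 0.62 to Mcm5 at 0.96 per the authors' deposited table. Mcm5, at chromosome 8 from 75109468 to 75128439 on GRCm38, had rank 213, and Mcm7 had a statistic of 0.91 and rank 245 per the authors' deposited table. Mcm6, Mcm3 and Mcm2 had 0.78, 0.71 and 0.68 per the authors' deposited table. The ring works as a complex with 1 copy of each subunit, and whether that bears on these values was not tested. The range of its genes was no narrower than that of the RPA genes (0.30 to 0.64) or the RFC genes (0.22 to 0.53), per the authors' deposited table. The loaders were lower. Cdc6, the ATPase that recruits the ring to ORC, lay just under the threshold at 0.498 per the authors' deposited table. Orc1 and Orc6, the largest and smallest ORC subunits, had 0.36 and 0.35 per the authors' deposited table. Cdt1, the licensing factor that is destroyed in S phase, was the only member below 0, by a small margin, at -0.08 and rank 9852 per the authors' deposited table. Its promoter carries an E2F match, as do the promoters of Mcm3 and Orc1, so a match was also found in a gene with a value close to 0.

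The helicase activators were all positive. Mcm10, a scaffold needed for origin firing, had 0.79, and Cdc45, a part of the active helicase, had 0.77 per the authors' deposited table. Of the GINS ring, Gins2 had 0.48 and Gins1 had 0.33 per the authors' deposited table. So 2 of 4 activators passed 0.5, and neither of the GINS genes among them did.

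The polymerase and primase genes were led by Pole, the catalytic subunit of the leading-strand polymerase epsilon. Pole, at chromosome 5 from 110286319 to 110337468, had a statistic of 1.05 and rank 160 per the authors' deposited table. Pola1, the catalytic subunit of the polymerase that extends primers, had 0.78, and its partner Pola2 had 0.57 per the authors' deposited table. The primase genes Prim1, which makes the RNA primer, and Prim2, its large subunit, had 0.64 and 0.40 per the authors' deposited table. Pold1, the catalytic subunit of polymerase delta, had 0.58 per the authors' deposited table. Of these 6 genes, 5 passed 0.5, with Prim2 below it.

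The clamp group was spread across the threshold of 0.5, with loader genes above and below it. Lig1, the ligase that seals Okazaki fragments, had 0.89, and Fen1, the nuclease that trims their flaps, had 0.57 per the authors' deposited table. Rpa2, a subunit of the protein that covers single strands, had 0.64 per the authors' deposited table. The clamp itself was lower: Pcna had 0.17 and rank 5420 per the authors' deposited table. The clamp loader genes Rfc5, Rfc4 and Rfc3 had 0.53, 0.31 and 0.23 per the authors' deposited table. Thus Lig1, Fen1, Rpa2 and Rfc5 passed 0.5, and Pcna, Rfc4 and Rfc3 did not. Pcna has processed pseudogenes, and the labels do not say how reads shared with them were counted.

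The 5 genes of deoxynucleotide supply had the highest median of the roles, 0.94, computed from the authors' deposited table, and all passed 0.5. Rrm2, the S phase subunit of ribonucleotide reductase, had 1.04 and rank 164, and its partner Rrm1 had 0.94 and rank 228 per the authors' deposited table. Tk1, the cytosolic thymidine kinase of dividing cells, had 0.97 per the authors' deposited table. Tyms, which makes thymidylate, had 0.75, and Dut, which removes dUTP, had 0.71 per the authors' deposited table. The lowest of these 5 genes lay above the median of all 43. A pseudogene row, Tyms-ps, had 0.04 per the authors' deposited table, and reads that fit both genes could have been split.

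Chromatin copying held both the highest member and the one closest to 0. Uhrf1, the reader of hemimethylated DNA, lies at chromosome 17 from 56303337 to 56323486 and had 1.18 and rank 109 per the authors' deposited table. Dnmt1, the maintenance methyltransferase that UHRF1 brings to DNA, had 0.15 and rank 6475 per the authors' deposited table. Hells, a chromatin remodeller that also serves DNA methylation, had 0.81 per the authors' deposited table. Of these methylation genes, Uhrf1 and Hells were high and Dnmt1 was among the lowest members. The histone chaperone CAF-1 genes Chaf1a and Chaf1b had 0.73 and 0.40 per the authors' deposited table. Slbp, which binds the stem-loop of replication-dependent histone mRNAs, stood near 0 at 0.02 and rank 14176 per the authors' deposited table.

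The S phase entry genes were all positive, with higher values for the cyclins and a lower value for their upstream factor. Ccne1 and Ccne2, the E cyclins that drive CDK2 at the G1/S boundary, had 0.73 and 0.65 per the authors' deposited table. E2f1, the activator E2F factor, had 0.18 and rank 5140 per the authors' deposited table. At the fork, Brca1, which protects and repairs stalled forks, had 0.70, and Tipin, a part of the fork protection complex, had 0.60 per the authors' deposited table. Of these 5 genes only E2f1 was under 0.5.

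Other subunits of the same complexes were compared next, because a complex needs all its parts and the 43 genes hold only some of them. ORC split by subunit: beside the positive Orc1 and Orc6, Orc2, Orc3, Orc4 and Orc5 lay at -0.07, -0.06, -0.05 and -0.01 per the authors' deposited table. Polymerase epsilon formed a series, with Pole at 1.05, Pole2 at 0.47, Pole3 at 0.07 and Pole4 at -0.09 per the authors' deposited table. Polymerase delta did likewise, with Pold1 at 0.58, Pold2 at 0.30, Pold3 at 0.04 and Pold4 at -0.13 per the authors' deposited table. In both polymerases the catalytic subunit had the highest statistic and the small accessory subunit the lowest. GINS had its highest value in Gins3 at 0.62 and its lowest in Gins4 at 0.09 per the authors' deposited table. The large RFC subunit gene Rfc1 had 0.31 and Rfc2 had 0.22 per the authors' deposited table, so Rfc2 was the lowest loader gene, just under Rfc3. Rpa1 and Rpa3 had 0.41 and 0.30 beside 0.64 for Rpa2 per the authors' deposited table. The name of the table carries the letters WAD, which match an abbreviation of the weighted average difference, a score weighted by expression level, though no header or label gives the formula. The size of such a score depends on abundance as well as on the ratio, so these orders are not read as orders of fold change.

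**Figure D2:**
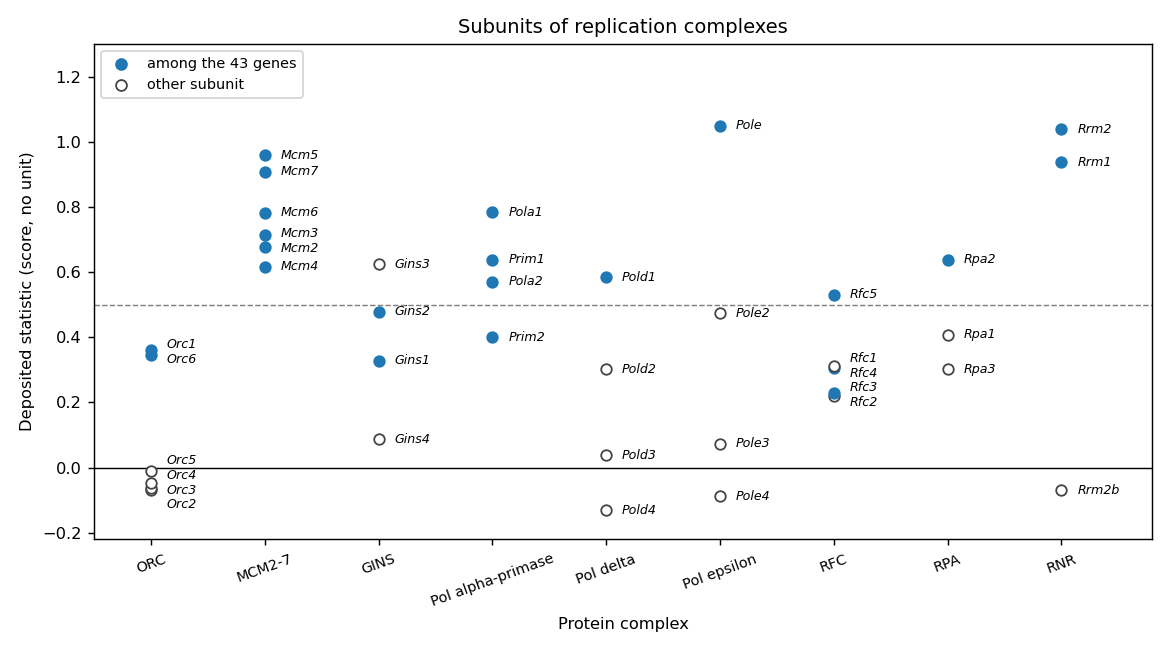
Deposited statistic (vertical axis, a score with no unit) of each subunit of 9 replication complexes, with filled points for the 43 genes and open points for other subunits. The 6 MCM2-7 subunits all lie above the dashed line at 0.5, and Orc2 to Orc5, Pold4, Pole4 and Rrm2b lie below 0.

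The rest of the pathway was described with 6 lists of other genes, holding 91 genes of which 90 were found. Across them 73 were positive and 17 negative, 26 stood at 0.5 or more, and their median was 0.24, computed from the authors' deposited table. Fork checkpoint and recombination genes came closest to the 43: all 18 were positive and 12 passed 0.5, with a median of 0.64. Clspn, the checkpoint mediator claspin, had 1.05 per the authors' deposited table. Brca2, a recombination and fork protection gene, had 0.79, and Timeless, the partner of Tipin, had 0.76 per the authors' deposited table.

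All 14 genes of the G1/S switch were positive and 7 passed 0.5. The D cyclin gene Ccnd2 led with 1.65 and rank 31, and Ccna2, the S phase cyclin, had 1.26 per the authors' deposited table. E2f7, a repressor of the E2F family, had 1.03, and E2f2, an activator, had 0.98 per the authors' deposited table. These E2F genes were far above E2f1, so the family did not share a size.

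Of 14 other origin and helicase genes 10 were positive and 5 passed 0.5. Besides Gins3, the leading genes were Wdhd1, a polymerase tether, at 0.61, the helicase gene Recql4 at 0.55 and the firing factor gene Topbp1 at 0.53 per the authors' deposited table. All 4 negative genes of this list were the ORC subunits named above. Of 14 other polymerase, clamp loader and RPA subunits 12 were positive and none passed 0.5, which is near the 3.77% of all genes that did. Apart from subunits already given, Dna2, a flap nuclease, had 0.46 per the authors' deposited table.

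The brakes on S phase entry were mixed. Of 12 kinase inhibitor and pocket protein genes 9 were positive, 3 were negative, and 2 passed 0.5. Cdkn1a, the p53-induced inhibitor p21, had the lowest value, -0.51 at rank 1093 per the authors' deposited table, on the side of Ly6c2. Cdkn1c, the inhibitor p57, had -0.23, and Cdkn1b, the inhibitor p27, had 0.33 per the authors' deposited table. Rbl1, the pocket protein p107 and itself an E2F target, had 0.74, and Cdkn2c, the inhibitor p18, had 0.53 per the authors' deposited table.

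Paralogs and alternative enzymes listed as not tied to S phase, many of them serving repair or mitochondria, were described in the same way. Of 18 such genes 10 were positive and 8 negative, and their median was 0.04, computed from the authors' deposited table. None reached 0.5 in either direction, against 3.77% of all genes at 0.5 or more and 0.988% at -0.5 or less. None of 18 is near those shares, so the count is not read as a trait of this list. Rrm2b, the reductase subunit of non-dividing cells, had -0.07 where Rrm2 had 1.04, and the mitochondrial kinase gene Tk2 had -0.17 where Tk1 had 0.97, per the authors' deposited table. Uhrf2 had -0.32 where its paralog Uhrf1 had 1.18 per the authors' deposited table. Lig3, the ligase of repair and mitochondria, had 0.02 where Lig1 had 0.89 per the authors' deposited table. The highest counterpart was Mcm8, a recombination helicase, at 0.42, followed by Dguok and Polb, each at 0.21, per the authors' deposited table. The gap was not wide throughout, as Dnmt3a had 0.06 where Dnmt1 had 0.15 per the authors' deposited table. For the pairs printed here the S phase enzyme had the larger statistic each time. The pairs were chosen by gene function with earlier results of these data known.

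**Figure D3:**
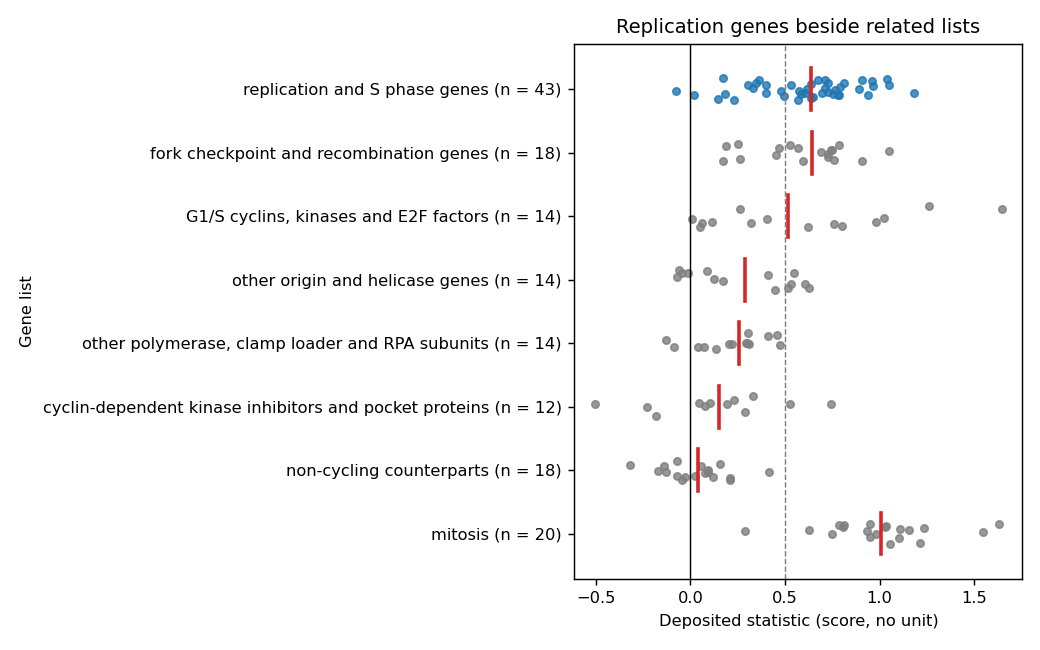
Each point is the deposited statistic (horizontal axis, a score with no unit) of a gene, in rows by list, with red bars at the list medians, a solid line at 0 and a dashed line at 0.5. The 43 genes centre at 0.64, the non-cycling counterparts at 0.04 and 20 mitosis genes at 1.01.

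Mitosis genes lay further out on the same side. All 20 of a short list, from Mki67 to Prc1, were positive, 19 passed 0.5, and their median was 1.01 against 0.64 for the replication genes, computed from the authors' deposited table. At 1 or more stood 10 of the 20 mitosis genes and 3 of the 43 replication genes. The difference was not tested. Since the size of the score may depend on abundance, it is not read as a difference in fold change.

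Genes that adjoin the replication genes on the other strand provide a local comparison. In the GENCODE M21 annotation, 16 of the 43 genes had a protein-coding neighbour with a value, either with a start within 1000 bases in the divergent direction (or overlapping by up to 300 bases) or overlapping on the opposite strand. These 17 neighbours held 7 positive and 10 negative values, none at 0.5 or more, against 3.77% of all genes. None of 17 is near that share, so the count is not read as a trait of the neighbours. Their median was -0.13, while the 16 replication genes had a median of 0.63, computed from the authors' deposited table. In 17 of 17 pairs the replication gene had the higher statistic, though the replication genes had been chosen with their values known. Among 9 divergent pairs, Pole had 1.05 and Pxmp2, a peroxisomal membrane protein gene 120 bases away, had 0.06 per the authors' deposited table. Brca1 had 0.70 and Nbr1, an autophagy receptor gene, had -0.22, with starts 194 bases apart, per the authors' deposited table. The neighbour with the highest value was Afmid at 0.34, beside Tk1 at 0.97, per the authors' deposited table. Of the 43 genes, 11 overlapped such a neighbour, and since strand handling is not stated in the labels, reads from the shared stretch cannot be told apart.

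**Figure D4:**
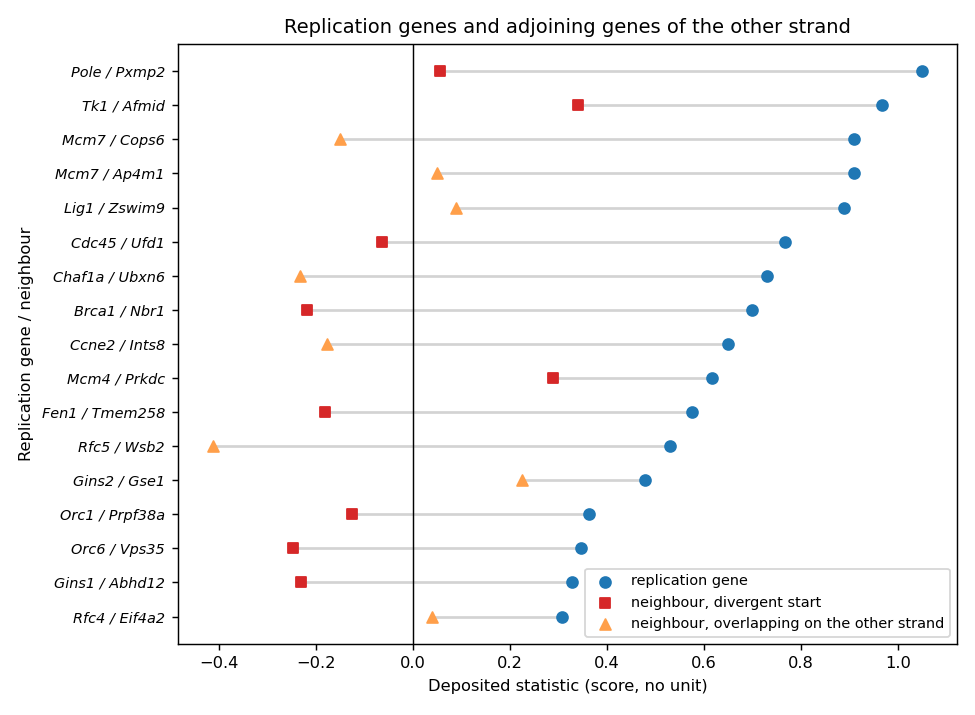
Deposited statistic (horizontal axis, a score with no unit) of each replication gene (circles) and of its neighbour on the other strand (squares for divergent starts, triangles for overlaps), 1 pair a row. Neighbours lie between -0.41 and 0.34, and each lies left of its replication gene.

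The E2F matches were then set beside the statistic. The 14 genes with a match had a median of 0.75 and ranged from -0.08 to 1.18, and 9 of them passed 0.5. The 22 genes with a promoter but no match had a median of 0.66 and ranged from 0.02 to 1.04, and 16 of them passed 0.5. The groups overlapped over nearly their whole range, so the statistic did not separate genes by a match in this window. No match says only that these letters are not in the window. CCAAT, searched on both strands, was in 21 of 36 genes (58.3%), against 41.1% of genes in the promoter table. TTTGAA, the core of an element of mitotic genes, was in 4 of 36 (11.1%), against 20.2%. The share of the E2F letters was several times its background. A motif as common as CCAAT could not reach such a multiple, so the 3 motifs are not ranked by it.

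Across the deposited table the share of genes with an E2F match was higher on the positive side. It was 11 of 124 genes (8.87%) at a statistic of 1 or more, 36 of 517 (6.96%) from 0.5 to 1 and 170 of 3208 (5.30%) from 0.1 to 0.5. On the other side it was 7 of 183 (3.83%) at -0.5 or less and 101 of 2677 (3.77%) from -0.5 to -0.1. Between -0.1 and 0.1, with 0 left out, it was 205 of 5894 (3.48%). Genes at exactly 0 had 1.02%, and only 529 of those 4891 genes had a CpG-rich promoter. Among genes with a CpG-rich promoter the shares were 10 of 53 (18.9%), 30 of 297 (10.1%) and 138 of 1847 (7.47%) in the same positive bins. They were 5 of 93 (5.38%) and 86 of 1788 (4.81%) in the negative bins. Between -0.1 and 0.1 without 0 the share was 158 of 3239 (4.88%), and at 0 it was 18 of 529 (3.40%). The positive bins were thus the higher ones in CpG-rich promoters too. Part of the excess came from the named genes: without the replication, pathway and mitosis lists the shares were 8 of 111 (7.21%), 21 of 472 (4.45%) and 158 of 3169 (4.99%) in the positive bins. Without those lists the negative bins had 7 of 182 (3.85%) and 101 of 2672 (3.78%), so little excess was left from 0.5 to 1. Among CpG-rich promoters without those lists the positive bins had 7 of 43 (16.3%), 17 of 266 (6.39%) and 128 of 1815 (7.05%). The negative bins then had 5 of 92 (5.43%) and 86 of 1783 (4.82%), so the gap from 0.5 to 1 was smaller. These are descriptions of 2 libraries, with few matches in the outer bins.

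**Figure D5:**
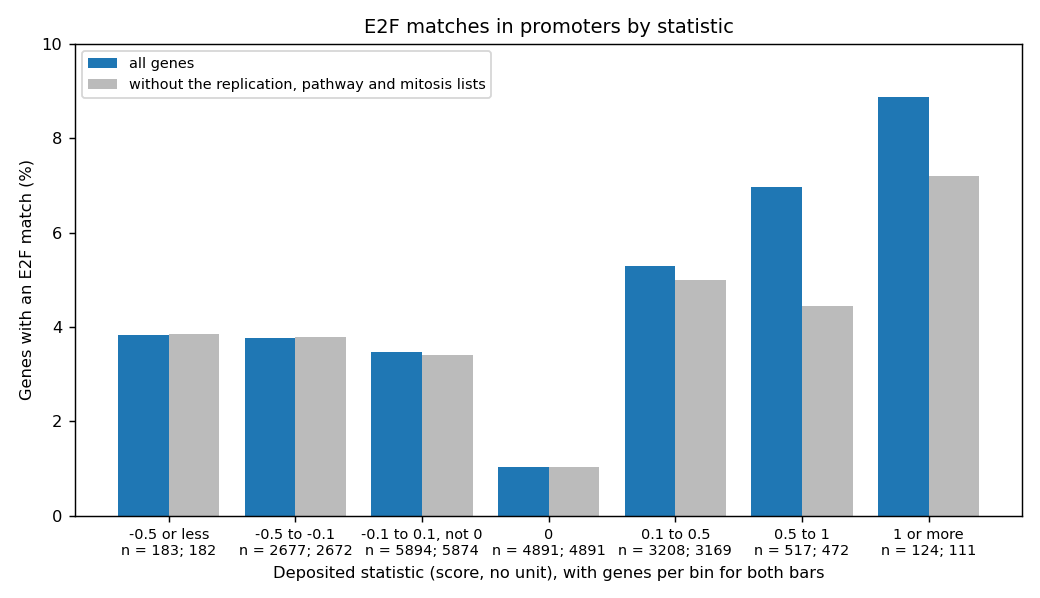
Share of genes with an E2F match in a listed promoter (vertical axis, percent) by bin of the deposited statistic, for all genes with a promoter (blue) and without the replication, pathway and mitosis lists (grey). Blue bars reach 8.87% at a statistic of 1 or more and 3.83% at -0.5 or less.

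Markers of fibroblasts and dendritic cells lay on the side of the replication genes, while those of other cell types varied. The part of any of these cells in the values was not tested. All 8 fibroblast markers were positive and 7 passed 0.5, from Tcf21 at 0.22 to Col1a1 at 2.14 per the authors' deposited table. All 9 dendritic cell markers were positive and 6 passed 0.5, from Xcr1 at 0.24 to Ccr7 at 2.84 per the authors' deposited table. Of 7 progenitor markers 4 were positive and 3 were exactly 0, from 0 for Elane to 1.70 for the stem cell factor receptor gene Kit per the authors' deposited table. Macrophage markers lay mainly on the other side, with 7 of 10 negative, from Fcgr1 at -0.79 to C1qa at 0.34 per the authors' deposited table. Classical monocyte markers did so too, with 6 of 7 negative, from Chil3 (listed as Chi3l3) at -1.86 to Ccr2 at 0.21 per the authors' deposited table. Endothelial markers were negative in 4 of 6, from Kdr at -0.57 to Tek at 0.07 per the authors' deposited table. Neutrophil markers were split, with 4 of 6 positive, from Mmp8 at -0.998 to S100a8 at 0.54 per the authors' deposited table. All 6 T and NK cell markers found were under 0.5 in size, from Cd3d at -0.08 to Cd8a at 0.11, per the authors' deposited table. So were all 5 B cell markers, from Cd79b at -0.24 to Cd79a at 0.20, per the authors' deposited table. Of all 23284 genes, 22176 were under 0.5 in size as well. Whether the labelled macrophage identity holds in each library cannot be read from a statistic of the difference.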

How the data were processed

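RNA of Ly6Chi and Ly6Clo macrophages, 1 library each, was sequenced. The submitters' processing notes name CASAVA 1.8.2, TopHat and mouse build mm10. No counting program, annotation, strand setting or program behind the statistic is named in the labels. The authors deposited 1 table with a signed score per gene (the statistic) and its rank. Ranks rebuilt from the absolute score matched for 23284 of 23284 genes. The table's 2 per-library columns were left out, because their codes match no sample label, so no totals, fold changes or counting intervals were computed.

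Members and gene lists were chosen with earlier results of these data known, so their direction is not independent evidence; the mitosis list, the complexes and the neighbour comparison were added after seeing the values. Named genes were all members, the 4 largest sizes and values of -0.2 or less of each pathway list, and the extremes of each marker list. The value of 1 gene that this rule names is not reported here. Subunits of complexes, counterparts of members, neighbours, Tyms-ps, Mki67 and Prc1 were named after their values were seen. Symbols were matched directly or through a single RefSeq synonym; Ticrr and Trac were not matched. A statistic of 0.5 was used as the threshold, with no error rate attached. Medians had binomial intervals aimed at 95%, which lists of 4 or 5 genes are too short to reach. Promoters came from RefSeq (GRCm38.p6, 300 bases), neighbours and exons from GENCODE M21 on the same assembly. The motif search and the median interval were tested on simulated data. Tools were pandas 2.3.3, NumPy 2.4.6 and SciPy 1.17.1 under Python 3.11.15, with Matplotlib 3.10.9 for figures.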

Additional observations from a re-analysis of the deposited data

How the results depend on the processing

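No paired analysis was possible because there is 1 library on each side, and neither can be left out. With a threshold of 1 in place of 0.5, 3 members were counted in place of 29, and with 0.25, 37. The single negative member has a size under 0.1, so 0 negative members were left at that minimum. Among genes with a size of at least 0.1, the share of all genes at 0.5 or more was 10.2% in place of 3.77%. When means replaced medians, 14 of 14 list values stayed inside the binomial interval of their median. For every role except origin licensing that interval was the whole range of the genes, so the mean could not fall outside it. The comparison is informative only for the longer lists. Members with an E2F match numbered 11 with TTTGGCGC and TTTCCCGC only, 13 in the shorter window and, chosen after seeing the data, 11 at the first listed starts. Among CpG-rich promoters alone, also chosen after seeing the data, 5.32% of genes had a match in place of 2.61%, and 12 of 25 members (48%). Depth per gene was not analysed, so the sign of a gene with a size under 0.1, Cdt1 and Orc2 to Orc5 included, carries no known precision.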
